A study of Cricetiscus sungorus with 12 samples.

Results

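The 10 genes described here are transcribed within minutes when neurons fire and are read as markers of recent neuronal activity. They were chosen by their mouse GeneIDs and are Egr1, Egr2, Egr3, Arc, Npas4, Nr4a1, Nr4a2, Nr4a3, Dusp1 and Btg2, which leaves out the Fos and Jun genes of the AP-1 family. All 10 were among the 17191 GeneIDs quantified, and all 10 passed the minimum of 10 counts in each comparison. Their levels were compared between summer-like, winter-like and torpid Djungarian hamsters.

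Synaptic input raises calcium in a neuron, kinases then phosphorylate CREB and serum response factor complexes already bound to DNA, and these switch on the immediate early genes without new protein synthesis. Egr1, Egr2, Egr3, Npas4, Nr4a1, Nr4a2 and Nr4a3 encode transcription factors that start a second wave of transcription, Arc encodes a protein that acts at the synapse itself, and Dusp1 and Btg2 encode products that restrain signalling and cell growth. In the hypothalamus such genes are used to find the neurons that respond to light, feeding, stress or temperature, and several of them also respond to stress in cells other than neurons.

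Hypothalamic mRNA was sequenced from 12 adult hamsters, 4 in each group, all killed 4 h after lights on (ZT 4). LP-NT hamsters had stayed in long photoperiod (16 h light, 8 h dark) and were normothermic. SP-NT hamsters were adapted to short photoperiod (8 h of light) and were normothermic on a torpor-free day, and SP-HT hamsters, in the same short photoperiod, were hypothermic in spontaneous daily torpor. By the labels LP-NT and SP-NT held males and females in equal number, SP-HT held 3 males and 1 female, and only the short photoperiod hamsters carried implanted temperature transmitters, so that photoperiod cannot be told apart from implantation.

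The deposited expected counts summed to 21732663 to 22710560 per LP-NT sample, 22860110 to 24186918 per SP-NT sample and 20204979 to 23018123 per SP-HT sample, so that depth was on the whole higher in SP-NT. A single count then equals between 0.0403 and 0.0490 CPM, the read count scaled to the size of its library. Values below are CPM adjusted by TMM factors over all 12 samples, which correct for differences in library composition, and log2(FC) values come from edgeR.

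Some samples stood apart or went against a label. Of the 4 LP-NT hamsters, replicate 01 was the highest or the lowest for the largest share of all genes (highest for 35.8% and lowest for 34.7% of 16380). SP-NT replicate 19 is labelled male, yet 3 GeneIDs with at least 163 counts in each of the other 6 males and at most 5 in every female had at most 1 count in it. The directions in torpor are those of the deposited labels, and for the genes that could be matched they ran opposite to the signs the study prints. With the deposited labels, DESeq2 with effective lengths gave 32 photoperiod genes, 15 higher and 17 lower, as the study prints. For torpor it gave 759 genes, 303 higher and 456 lower, where the study prints the reverse split. Whether the SP-HT and SP-NT labels were exchanged at some step, or the printed torpor direction is inverted, was not tested. An inverted print would leave the values below as they stand. An exchange of the labels would turn the sign of every torpor value below, so that Arc would be higher and Dusp1 lower in torpor. Group values given for SP-NT and SP-HT, and their differences from LP-NT, would then change places too. The gene matched to Rbm3-ps, of a cold-inducible family of RNA-binding proteins, averaged 3.10 ± 0.671 CPM in the samples labelled SP-HT and 15.1 ± 1.50 CPM in those labelled SP-NT (SD, n = 4 each), with a log2(FC) of -2.28 (edgeR, adjusted p = 0.000214). In LP-NT it averaged 14.9 ± 3.97 CPM (SD, n = 4), with a log2(FC) of 0.02 for SP-NT over LP-NT and -2.25 for SP-HT over LP-NT, so that by the labels both normothermic groups lay together. The study prints this gene as higher in torpor.

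Between the photoperiods none of the 10 genes passed an adjusted p of 0.05 in edgeR, beside 0.037% of all genes. Between the samples labelled SP-HT and SP-NT, called the torpor comparison below, 2 of 10 passed, beside 2.4% of all genes. These were Arc, which was lower in the samples labelled SP-HT, and Dusp1, which was higher, and the other 8 did not pass. Between the samples labelled SP-HT and LP-NT no gene of the 10 passed, beside 1.37% of all genes. In tissue RNA, fewer cells of a type and less RNA per cell cannot be told apart, and this holds for each value below.

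**Figure D1:**
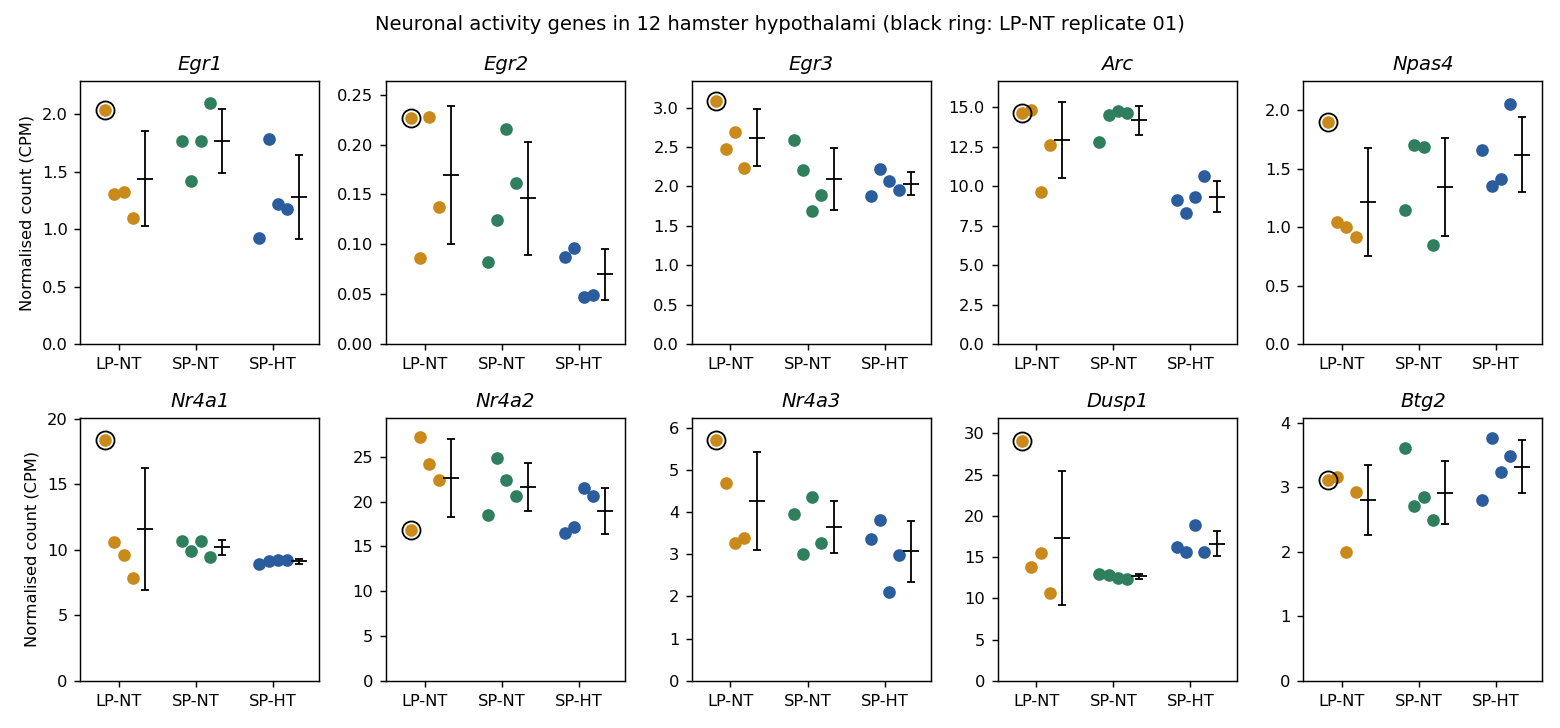
Normalised counts of the 10 genes (y axis, CPM, each panel from 0) in the 4 samples of LP-NT, SP-NT and SP-HT (x axis). Each point is a hamster, the bar beside it is the mean with its SD, and the ring marks LP-NT replicate 01. Arc lies between 8.30 and 10.6 CPM in SP-HT and between 12.8 and 14.8 CPM in SP-NT, and Dusp1 lies between 15.7 and 18.9 CPM in SP-HT and between 12.4 and 13.0 CPM in SP-NT.

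Arc (GeneID 11838) encodes a cytoskeleton-associated protein whose mRNA travels to active dendrites, where the protein promotes the removal of AMPA receptors. Replicates 02, 10, 26 and 33 of SP-HT had 9.15, 8.30, 9.30 and 10.6 CPM of Arc. Replicates 19, 36, 37 and 38 of SP-NT had 12.8, 14.5, 14.8 and 14.6 CPM. LP-NT replicates 01, 02, 03 and 05 had 14.7, 14.8, 9.61 and 12.6 CPM. Every SP-HT sample therefore lay below every SP-NT sample, whereas LP-NT replicate 03 lay within the range of SP-HT.

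Arc averaged 12.9 ± 2.44 CPM in the LP-NT group, 14.2 ± 0.917 CPM in the SP-NT group and 9.35 ± 0.967 CPM in the SP-HT group (SD, n = 4 each). Arc fell in the samples labelled SP-HT to 0.659 of its SP-NT level, a log2(FC) of -0.60 (standard error 0.101, 95% interval -0.82 to -0.38, adjusted p = 0.0151 in edgeR by its quasi-likelihood test, with p-values adjusted by Benjamini and Hochberg's method over 16195 genes). It was rank 108 by p among these genes. Over all genes, 2.4% passed this threshold in torpor, 0.506% as higher and 1.9% as lower, and 12.1% had groups that did not overlap in CPM, 4.74% as higher and 7.39% as lower.

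The fall of Arc was not carried by any one hamster in size, with a log2(FC) between -0.67 and -0.55 when each was left out, but its call was lost in 1 of these 8 fits (without SP-NT replicate 38, where edgeR gave a log2(FC) of -0.58 and an adjusted p of 0.0543). Without SP-NT replicate 19, whose sex label is in doubt and whose Arc value was the lowest of its group, the log2(FC) was -0.65 (adjusted p = 0.0306 in edgeR). In DESeq2 the adjusted p was 3.30e-05, and over 10 other settings Arc was called in 9, with an adjusted p up to 0.0509 with sex as a covariate and SP-NT replicate 19 taken as female. Per transcript length the groups also stayed apart, from 4.42 to 4.83 TPM in SP-HT and from 6.36 to 8.21 TPM in SP-NT.

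Against LP-NT, Arc in SP-HT had a log2(FC) of -0.46 (95% interval -0.79 to -0.13, adjusted p = 0.173 in edgeR), and the groups overlapped. Between SP-NT and LP-NT it had a log2(FC) of 0.13 (95% interval -0.17 to 0.43, adjusted p = 0.921 in edgeR).

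Dusp1 (GeneID 19252) encodes a nuclear phosphatase that switches off the MAP kinases ERK, JNK and p38 and is itself induced by them. It had 16.3, 15.7, 18.9 and 15.7 CPM in SP-HT replicates 02, 10, 26 and 33. Replicates 19, 36, 37 and 38 of SP-NT had 13.0, 12.8, 12.4 and 12.4 CPM. The 4 LP-NT samples had 29.1, 13.8, 15.5 and 10.7 CPM, in the order of replicates 01, 02, 03 and 05. All SP-HT samples were above all SP-NT samples, and the LP-NT samples spread from below the one group to above the other.

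Dusp1 rose 1.31-fold in the samples labelled SP-HT over SP-NT, from 12.7 ± 0.306 to 16.6 ± 1.53 CPM (SD, n = 4 each), with a log2(FC) of 0.39 (standard error 0.0847, 95% interval 0.21 to 0.58, adjusted p = 0.0400 in edgeR, rank 308 by p). DESeq2 gave an adjusted p of 0.00291. The call was lost in edgeR with any single hamster left out, although the log2(FC) stayed between 0.33 and 0.42. Of the SP-HT hamsters, the adjusted p in edgeR was 0.0715 without replicate 02, 0.0633 without replicate 10, 0.0906 without replicate 26 and 0.0519 without replicate 33. For the SP-NT hamsters it was 0.0871 without replicate 19, 0.0974 without replicate 36, 0.0758 without replicate 37 and 0.112 without replicate 38 in edgeR. The call was also lost with sex as a covariate (adjusted p = 0.0803 in edgeR, or 0.119 with SP-NT replicate 19 taken as female). It was lost as well with all 12 samples in a single fit, which brings in the spread of LP-NT (adjusted p = 0.433 in edgeR). Over 10 other settings Dusp1 was called in 7.

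**Figure D2:**
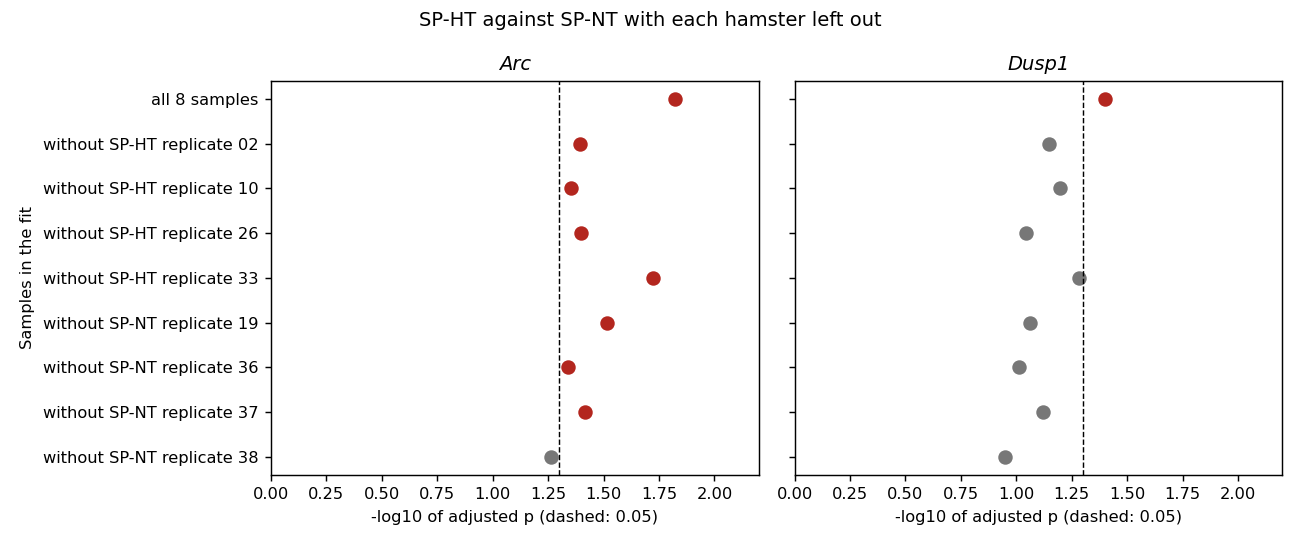
Adjusted p of Arc (left) and Dusp1 (right) for SP-HT against SP-NT in edgeR, as -log10 on the x axis, for all 8 samples and for each set of 7 (y axis). The dashed line is the threshold of 0.05 and red points are past it. Arc is past it in 7 of 8 reduced fits and Dusp1 in 0 of 8.

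The low spread of Dusp1 in SP-NT bears on this test. Its coefficient of variation was 2.41% in SP-NT, below the 5.73% that counting error alone gives at its counts, and 9.21% in SP-HT. In LP-NT it was 47.0%, where replicate 01 had 2.10 times the median of the other 3 samples. Dusp1 in LP-NT had 17.3 ± 8.12 CPM (SD, n = 4), and its log2(FC) was -0.45 for SP-NT over LP-NT (95% interval -1.01 to 0.11, adjusted p = 0.913 in edgeR) and -0.05 for SP-HT over LP-NT (95% interval -0.60 to 0.50, adjusted p = 0.952 in edgeR). The latter became 0.32 without LP-NT replicate 01 (adjusted p = 0.277 in edgeR).

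Btg2 (GeneID 12227), the other gene of this set that restrains growth, encodes an antiproliferative protein that promotes the shortening of mRNA tails. It ranged from 2.00 to 3.17 CPM among LP-NT hamsters, from 2.50 to 3.61 CPM among SP-NT hamsters and from 2.80 to 3.76 CPM among SP-HT hamsters. The ranges overlapped widely, and the log2(FC) in torpor was 0.18 (95% interval -0.18 to 0.55, adjusted p = 0.594 in edgeR). Neither the photoperiods (log2(FC) 0.05) nor SP-HT and LP-NT (log2(FC) 0.25) separated it.

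The EGR genes encode zinc finger transcription factors that bind a shared GC-rich DNA element. Egr1 (GeneID 13653), long used to map activated neurons, had 0.919, 1.78, 1.22 and 1.18 CPM in SP-HT replicates 02, 10, 26 and 33. In SP-NT replicates 19, 36, 37 and 38 it had 1.77, 1.42, 1.77 and 2.10 CPM, and in LP-NT replicates 01, 02, 03 and 05 it had 2.04, 1.30, 1.32 and 1.10 CPM. Of the SP-HT samples, 3 lay below every SP-NT sample and replicate 10 lay among them.

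The log2(FC) of Egr1 was -0.47 for torpor (95% interval -0.99 to 0.05, adjusted p = 0.316 in edgeR) and 0.29 for short over long photoperiod (95% interval -0.22 to 0.81, adjusted p = 0.913 in edgeR). Neither passed the threshold. Egr1 had 21 to 52 counts per sample, and both intervals include no change. Its coefficient of variation was 28.6% in LP-NT and in SP-HT, above the counting error of 17.7% and 19.2%. In SP-NT it was 15.8%, near the counting error of 15.3%.

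Egr3 (GeneID 13655), a relative of Egr1 that is also needed to form muscle spindles, had 3.08, 2.47, 2.69 and 2.24 CPM in LP-NT replicates 01, 02, 03 and 05. It had 2.59, 2.21, 1.68 and 1.90 CPM in SP-NT and 1.88, 2.22, 2.07 and 1.96 CPM in SP-HT, in the replicate order given above. The lowest LP-NT sample, at 2.24 CPM, lay just above the highest SP-HT sample, at 2.22 CPM, so that these groups did not overlap, as held for 10.6% of all genes in that comparison. The log2(FC) for SP-HT over LP-NT was -0.36 (95% interval -0.73 to 0.01, adjusted p = 0.352 in edgeR). It was -0.32 for SP-NT over LP-NT (adjusted p = 0.913 in edgeR) and -0.04 in torpor (adjusted p = 0.927 in edgeR).

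Egr2 (GeneID 13654), which in the nervous system also drives myelination by Schwann cells, was near the limit of detection, with 35 counts over the 12 samples. LP-NT samples had 2 to 5 counts each and 15 in all, SP-NT samples had 2 to 5 each and 14 in all, and SP-HT samples had 1 or 2 each and 6 in all. The ratio of SP-HT to SP-NT per total count was 0.468, with an exact 95% counting interval from 0.147 to 1.30, and that of SP-HT to LP-NT was 0.408 (0.130 to 1.11). Both intervals hold 1, and they cover counting error only.

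Npas4 (GeneID 225872), a basic helix-loop-helix factor that in the brain depends almost wholly on calcium entry, had 1.66, 1.35, 1.41 and 2.06 CPM in SP-HT. SP-NT replicates 36 and 37 had 1.71 and 1.68 CPM and replicates 19 and 38 had 1.15 and 0.847 CPM. In LP-NT replicate 01 had 1.90 CPM and the other 3 samples 0.913 to 1.04 CPM. The groups overlapped, and the log2(FC) was 0.27 in torpor (95% interval -0.31 to 0.84, adjusted p = 0.633 in edgeR), 0.14 between the photoperiods and 0.42 for SP-HT over LP-NT (95% interval -0.18 to 1.03, adjusted p = 0.519 in edgeR).

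The NR4A genes encode orphan nuclear receptors whose activity follows their amount rather than a ligand. Nr4a1 (GeneID 15370) had 8.89, 9.12, 9.26 and 9.21 CPM in SP-HT, and 10.7, 9.95, 10.7 and 9.48 CPM in SP-NT. In LP-NT it had 18.4, 10.6, 9.61 and 7.86 CPM, the first in replicate 01. SP-HT therefore lay below SP-NT without overlap, by a small margin, and both lay within the range of LP-NT.

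The torpor log2(FC) of Nr4a1 was -0.16 (95% interval -0.35 to 0.03, adjusted p = 0.354 in edgeR) and did not pass. Per length the groups overlapped, from 8.52 to 10.5 TPM in SP-HT and from 10.3 to 11.7 TPM in SP-NT. Its coefficient of variation was 1.82% in SP-HT, below the counting error of 7.17%, and 40.1% in LP-NT. The photoperiod log2(FC) of -0.19 (95% interval -0.69 to 0.31, adjusted p = 0.929 in edgeR) turned to 0.12 without LP-NT replicate 01.

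Nr4a2 (GeneID 18227), which also maintains the dopamine neurons of the midbrain, lay between 16.9 and 27.2 CPM in LP-NT. The other groups lay within this range or just under it, at 18.6 to 24.9 CPM (SP-NT) and 16.5 to 21.5 CPM (SP-HT). It was the only gene of the 10 with its lowest LP-NT value in replicate 01. Its log2(FC) was -0.07 for photoperiod, -0.19 for torpor (95% interval -0.44 to 0.06, adjusted p = 0.409 in edgeR) and -0.25 for SP-HT over LP-NT.

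Nr4a3 (GeneID 18124), the third receptor of the family, lay between 3.28 and 5.70 CPM in LP-NT and between 2.11 and 3.81 CPM in SP-HT. The group means were 4.26 ± 1.15 CPM for LP-NT, 3.64 ± 0.622 for SP-NT and 3.07 ± 0.721 for SP-HT (SD, n = 4 each). The ranges overlapped in each pair, and no comparison passed, with a log2(FC) of -0.25 for torpor (adjusted p = 0.551 in edgeR) and -0.46 for SP-HT over LP-NT (95% interval -0.98 to 0.05, adjusted p = 0.384 in edgeR).

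**Figure D3:**
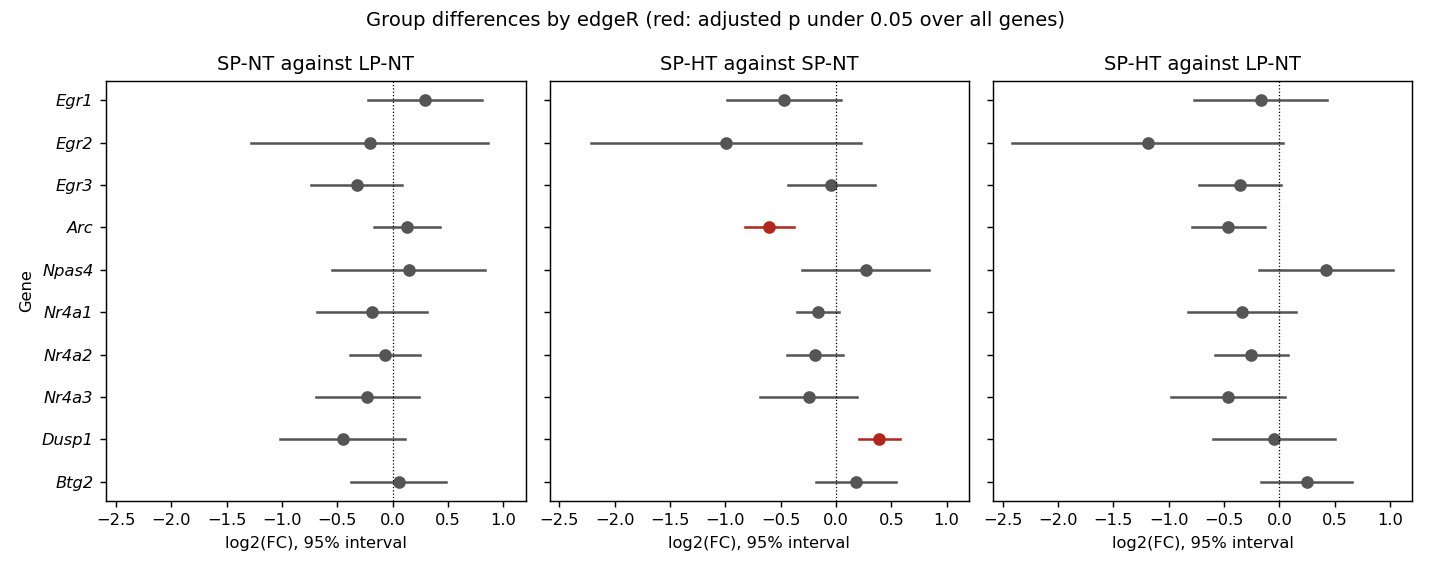
log2(FC) of each gene (y axis) with its 95% interval from edgeR (x axis, log2 scale) for SP-NT over LP-NT, SP-HT over SP-NT and SP-HT over LP-NT, in panels from left to right. Red points passed an adjusted p of 0.05 over all genes tested, which were Arc at -0.60 and Dusp1 at 0.39 in the middle panel and none in the other panels.

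For the photoperiod comparison, 0 of the 10 genes passed in edgeR, beside 0.037% of 16199 genes (6 genes), and 0 in DESeq2, which called 33 genes. At an unadjusted p under 0.05 in edgeR there were also 0 of the 10, beside 4.84% of all genes, and 0 had groups that did not overlap in CPM, beside 3.44% of all genes. The smallest adjusted p among the 10 was 0.913 in edgeR. The sign of the log2(FC) was positive for 4 and negative for 6, and positive for 49.2% of all genes. The median log2(FC) was -0.13 over the 10 genes and -0.00 over all genes.

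For torpor 2 of 10 passed, 1 higher and 1 lower, beside 2.4% of 16195 genes, and both were also called by DESeq2. At an unadjusted p under 0.05 in edgeR there were the same 2, beside 18.4% of all genes. The groups did not overlap in CPM for 3 of 10 (Arc, Nr4a1 and Dusp1), beside 12.1% of all genes, and in TPM for 2 of 10 (Arc and Dusp1), beside 10.5%. The log2(FC) was negative for 7 of 10 genes and for 50.6% of all genes, with a median of -0.18 over the 10 and -0.00 over all genes.

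For SP-HT against LP-NT, which shares its samples with the other comparisons, 0 of 10 passed in edgeR, beside 1.37% of 16157 genes (221), and 0 in DESeq2, which called 706. At an unadjusted p under 0.05 there was 1 of 10, Arc, beside 15.1% of all genes, and Egr3 alone had groups that did not overlap in CPM, beside 10.6%. The log2(FC) was negative for 8 of 10 and for 50.2% of all genes, with a median of -0.30 over the 10.

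The spread among hamsters was widest in LP-NT for most of these genes. LP-NT had the largest coefficient of variation of the 3 groups for 8 of the 10 genes, with a median of 27.8%, against 16.2% in SP-NT and 12.7% in SP-HT. The same held for 49.5% of 16353 genes, with medians over all genes of 12.6%, 8.56% and 9.99% in that order of groups. In 7 of the 30 combinations of gene and group it was below the counting error, so that the spread there could not be told from that of counting.

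Much of this spread lay in a single hamster. LP-NT replicate 01 was the highest of its group for 6 genes (Egr1, Egr3, Npas4, Nr4a1, Nr4a3 and Dusp1), as it was for 35.8% of all genes. For 4 genes it was the highest of all 12 samples. Its value was 2.10 times the median of the other 3 LP-NT samples for Dusp1, 1.91 times for Nr4a1, 1.90 times for Npas4, 1.69 times for Nr4a3 and 1.56 times for Egr1. LP-NT replicate 05 was the lowest of the group for 5 genes, all of them among these 6, as it was for 26% of all genes.

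Fos, of the AP-1 family and matched by its printed values, had 26.9 CPM in LP-NT replicate 01, 8.90, 5.55 and 2.69 CPM in replicates 02, 03 and 05, and 4.52 to 7.02 CPM in the 8 short photoperiod samples. Replicate 01 thus had the highest value for Fos as well, and replicate 05 the lowest.

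**Figure D4:**
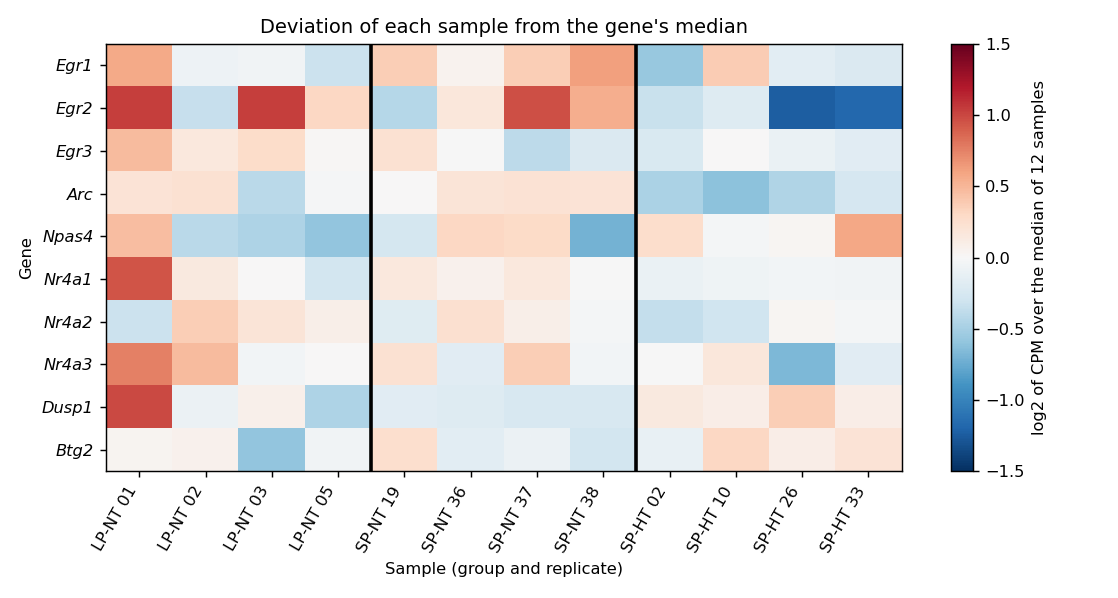
Deviation of each sample (x axis, 4 hamsters per group) from the median of the 12 samples for each gene (y axis), as log2 of the CPM ratio in colour, red above and blue below the median. LP-NT replicate 01 is above the median for 9 genes and below it for Nr4a2, and Arc is below the median in all 4 SP-HT samples.

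As a summary over the 10 genes, log2 CPM was standardised per gene over the 12 samples and averaged per sample. Every gene had equal weight, also Egr2, whose spread was below its counting error in each group. The mean was 1.30 SD units in LP-NT replicate 01, and 0.29, -0.15 and -0.41 in LP-NT replicates 02, 03 and 05. It lay between -0.19 and 0.27 in SP-NT and between -0.60 and -0.11 in SP-HT. The 4 SP-HT samples were all below zero, LP-NT replicates 03 and 05 lay within their range and the others above it, while SP-NT replicate 38 also lay within it.

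The genes differed in how closely they followed this mean. Against the mean of the other 9 genes over the 12 samples, Pearson's r was 0.922 for Nr4a1 (0.812 without LP-NT replicate 01 and SP-HT replicate 02, the samples farthest from the median of the mean over the 10 genes), 0.686 for Nr4a3 (0.553 without the pair) and 0.498 for Egr1 (0.0897 without it). It was -0.28 for Nr4a2 and -0.07 for Btg2. For Dusp1 it was 0.372, and -0.47 without that pair of samples. Taken on deviations from the group means, r was 0.924 for Nr4a1, 0.748 for Dusp1, 0.555 for Egr1 and 0.311 for Btg2, and -0.59 for Nr4a2. These values describe samples that share depth and group, and LP-NT replicate 01 has a large part in them.

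Among 13931 other GeneIDs with a mean of at least 1 CPM, those most like the mean of the 10 genes over the 12 samples were GeneID 107817 (Pearson's r 0.947, Spearman's rho 0.888, r 0.813 without the same pair of samples) and GeneID 66256 (r 0.943, rho 0.748). Names for these GeneIDs were not used here. Fos was rank 69 of these genes (r 0.867, rho 0.622, r 0.599 without the pair). Per1, a clock gene with binding elements for CREB that light and activity induce, was rank 7130 (r 0.0451, r 0.253 without the pair). Taken on deviations from the group means, r was 0.935 for Fos and 0.638 for Per1. Per1 had a log2(FC) of 0.21 in torpor (adjusted p = 0.359 in edgeR) and 0.27 between the photoperiods (adjusted p = 0.913 in edgeR).

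Levels can be compared between genes only per length, as TPM. The lengths are those of the assembled transcripts, so the order also rests on how complete these are, which was not tested. Dusp1 was the most abundant of the 10 in each group, with 26.3 ± 11.4 TPM for LP-NT, 19.9 ± 0.302 TPM for SP-NT and 25.2 ± 2.21 TPM for SP-HT (SD, n = 4 each), and its range did not overlap that of Nr4a1, the next gene, in any group. Its mean over 12 samples stood at percentile 55.5 of all GeneIDs, against 39.0 for Nr4a1, 34.2 for Nr4a2, 31.2 for Arc and for Btg2, 25.4 for Nr4a3, 22.8 for Egr1, 15.7 for Egr3, 12.9 for Npas4 and 6.42 for Egr2. All but Dusp1 thus lay in the lower part of the range of levels in this tissue.

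Arc was rank 4 of the 10 by TPM in LP-NT (6.21 ± 1.30 TPM) and SP-NT (7.22 ± 0.773 TPM) and rank 5 in SP-HT (4.61 ± 0.188 TPM, SD, n = 4 each). Btg2 was rank 5 in both normothermic groups, at 5.57 TPM (LP-NT) and 5.77 TPM (SP-NT), and rank 3 in SP-HT at 6.75 TPM. In SP-HT all samples of Arc lay below all samples of Nr4a2 and Btg2, the genes above it, whereas in LP-NT and SP-NT Arc overlapped both. Egr3, Npas4 and Egr2 filled the last ranks in each group, where Egr3 and Npas4 overlapped.

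**Figure D5:**
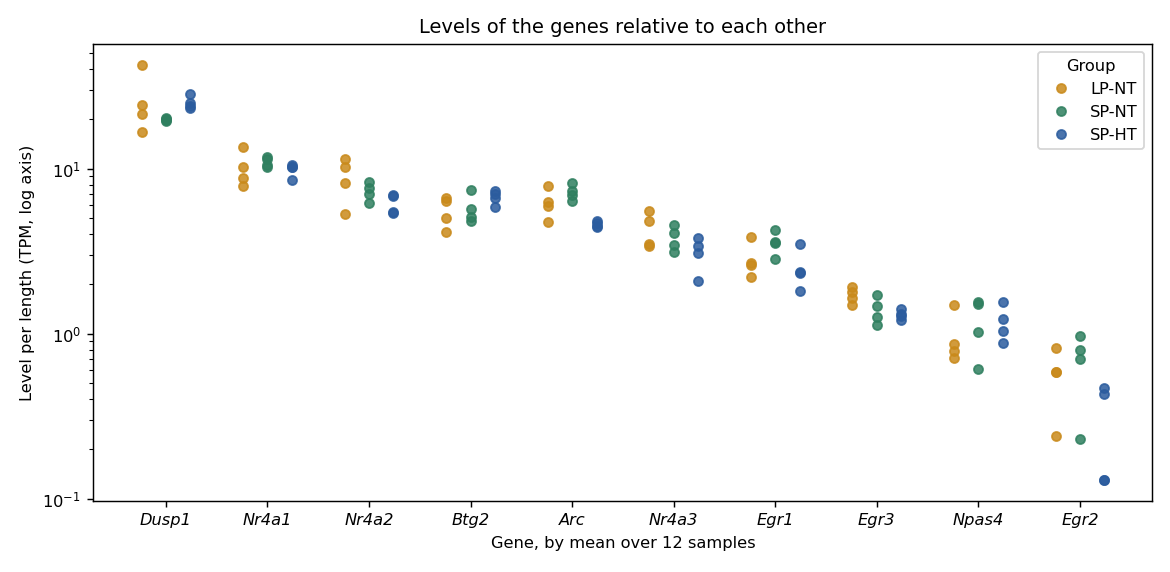
Level per transcript length of each gene in each sample (y axis, TPM, log axis), with genes ordered on the x axis by their mean over 12 samples and colours for the groups. Dusp1 is highest in each group, at 16.6 to 42.7 TPM in LP-NT, and Egr2 is lowest, at 0.130 to 0.470 TPM in SP-HT.

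Each GeneID joins the assembled transcripts whose best mouse protein hit was that gene, and their make-up differed among the 10. Egr1 and Egr3 were a single transcript each, Egr2, Nr4a2 and Nr4a3 had 2, Dusp1 and Btg2 had 3, Arc and Npas4 had 4, and Nr4a1 had 6. One assembled locus held transcripts of both Nr4a1 and Nr4a2, so that reads between this pair of receptors may be split with some uncertainty.

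For Egr1, Egr3, Nr4a3 and Dusp1 the effective length differed by a factor of 1.03 or less between samples, so that their CPM and TPM carry the same comparison. For Nr4a1 it ran from 2323 to 3564 bases, with the longest in LP-NT replicate 01, and for Nr4a2 it was 6574 and 6096 bases in LP-NT replicates 02 and 05 against 8277 to 8306 in the other 10 samples. With the effective lengths in DESeq2, the log2(FC) of Nr4a1 for SP-HT over LP-NT moved from -0.33 to -0.02 and that of Nr4a2 from -0.25 to -0.48, neither past the threshold (adjusted p = 0.980 and 0.206 in DESeq2). For Npas4 in torpor it moved from 0.28 to 0.05. The values of Arc and Dusp1 in torpor were -0.60 and 0.39 with the lengths, and both stayed past the threshold (adjusted p = 5.53e-05 and 0.0122 in DESeq2).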

How the data were processed

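Poly(A) RNA of 12 hypothalami was sequenced as paired ends. Per the labels and the methods of the study, the authors checked and trimmed reads with FastQC 0.11.9 and Trim Galore 0.6.6, pooled all samples in a de novo Trinity assembly, kept transcripts with a mouse protein as best blastx hit, mapped each sample with Bowtie 1.3.0 and quantified it with RSEM 1.3.1. The deposited values are expected counts per mouse GeneID, not normalized, with effective lengths and TPM computed by the authors' RSEM run from counts per length. The library kit was directional, and the strand setting of the mapping and counting was not given in the sources used here.

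Expected counts were rounded, a gene entered a comparison with 10 or more counts summed over its 8 samples, and groups were compared by edgeR 4.0.16 (R 4.3.3, quasi-likelihood test, TMM, two-sided, no covariates, Benjamini-Hochberg over all genes tested, threshold 0.05). Each hamster is 1 replicate. CPM used TMM factors over 12 samples, and log2 CPM for the summary a prior count of 2. Replicates differed beyond sampling noise in all 18 pairs (chi-square per degree of freedom 6.79 to 37.7). Counting intervals cover 95%. On simulated counts with changed genes, edgeR recovered 73.2% of 1.5-fold and 94.7% of 2-fold changes for torpor (16195 genes) and 58.0% and 87.9% for photoperiod (16199 genes). The changed genes were drawn only from those above a minimum mean count, which Egr2 did not reach. Npas4 and Egr1 lay not far above it, so these shares need not hold for the genes of low count.

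The names of the 10 genes are those given with their GeneIDs. The files pair no names with GeneIDs, so Fos, Per1 and Rbm3-ps were matched by the size of the study's printed fold changes to those of DESeq2 with lengths. Of 61 printed genes 59, Fos and Per1 among them, matched within 0.0051 in log2(FC) and 6e-04 in adjusted p in both comparisons. Rbm3-ps was matched apart from these, by its torpor fold change printed to 1 decimal and its bound on adjusted p, which 1 GeneID met. The torpor sign was left out because, taken from the deposited labels, it ran opposite to the print in 53 matched genes with a clear sign and as printed in 0. Symbol lists of the upstream pathway (91 genes) and of cell types (83 genes) matched 1 and 3 GeneIDs and were not analysed here, so that the part of cell composition in any result was not tested. Promoter and protein sequences were not used here. The 10 genes and all lists were chosen with earlier results of these data known. The text names all 10 genes, and of the genes most like their mean the first by correlation. Alternatives were DESeq2 1.42.0 with and without effective lengths, limma 3.58.1 (voom, quality weights), median-of-ratios and total-count scaling, other count filters, all 12 samples in a fit, sex as a covariate and leaving out each hamster. Taking SP-NT replicate 19 as female was added after seeing the data.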

Additional observations from a re-analysis of the deposited data

Results flagged for a closer look

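Of 30 combinations of gene and group, 2 held a sample far from the others of its group. This is near the share of about 1 in 20 that chance gives, so the values describe single samples and are not a result about these genes. In SP-NT, Arc was 12.8 CPM in replicate 19, against 14.5 to 14.8 CPM in the other 3 hamsters. In LP-NT, Npas4 was 1.90 CPM in replicate 01, against 0.913 to 1.04 CPM in the others. SP-NT replicate 19 is the sample whose sex label went against 3 male-specific GeneIDs, and LP-NT replicate 01 the one with the highest Fos. What sets these samples apart was not tested.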

How the results depend on the processing

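Over the log2(FC) values of the 10 genes under the alternatives, 498 kept their direction and side of the threshold, 4 kept their direction with no adjusted p from DESeq2, 13 fell short of the threshold and 12 reversed. For photoperiod the 6 called genes became 33 in DESeq2 and 32 with effective lengths, and 5 to 8 with each hamster left out. For torpor the 389 called genes became 1017 in DESeq2, 759 with effective lengths, 589 with total counts only (10.9% of them higher, against 21.1%), 242 with sex as a covariate and 134 with SP-NT replicate 19 taken as female. Each hamster left out gave 104 (without SP-NT replicate 38) to 318 genes (without SP-HT replicate 33), all but the latter under the main count by over 1.5 times. For SP-HT against LP-NT the 221 became 706 in DESeq2, 623 with lengths, 416 in limma, 612 with all samples in a fit, and 55 to 200 with each hamster left out, below 90 for all but LP-NT replicate 01 (200). The cause was not tested.

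Reversed values were all of genes that did not pass. For SP-NT over LP-NT these were Nr4a1 in limma (0.0303), with lengths (0.0773) and without LP-NT replicate 01 (range -0.34 to 0.12 over left-out hamsters), Egr2 with lengths (0.21), Btg2 with SP-NT replicate 19 as female (-0.00999) and without LP-NT replicate 03 or SP-NT replicate 19 (-0.0739 to 0.12), and Nr4a2 without LP-NT replicate 02 (-0.19 to 0.0280). For torpor it was Egr3 without SP-NT replicate 19 (-0.13 to 0.0749). For SP-HT over LP-NT these were Dusp1 in limma (0.21) and without LP-NT replicate 01 (-0.22 to 0.32), and Egr1 without LP-NT replicate 01 (-0.37 to 0.0384). No sign changed with the scaling. No paired analysis was possible because replicate numbers name single hamsters and only LP-NT and SP-HT share a number, 02. Depth limits Egr2 most, then Npas4 and Egr1, with 35, 375 and 406 counts over 12 samples.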
